A study of Mus musculus with 35 samples.

Results

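The Zfp42 locus was followed by ATAC-seq, in which a transposase cuts open chromatin and marks the cut DNA for sequencing. Zfp42, also called Rex1, lies on mouse chromosome 8 at 43295067 to 43307009 (GRCm38) on the minus strand, so that transcription starts at 43307009 and runs towards lower coordinates. The locus was taken as every 2-kb tile that overlaps the gene or the 50 kb on either side of it (43245067 to 43357009), which gave 57 of the 1362779 tiles of the series. Of these, 7 overlap Zfp42. The others are called intergenic below, a label set against Zfp42 alone. Accessibility was read in 4 lines of mouse embryonic stem cells: TET_WT, the parental line of TET_KO, in which Tet1, Tet2 and Tet3 are all knocked out, and DNMT_WT, the parental line of DNMT_KO, in which Dnmt1, Dnmt3a and Dnmt3b are all knocked out. Each line was sampled as naive stem cells in 2i and Lif (D0) and as epiblast-like cells after 1 day (D1) and 2 days (D2) of differentiation. The 12 groups held 3 libraries each, except TET_KO at D2 with 2 (replicates 1 and 3). Neither the strain of the lines nor the number of clones behind each knockout is given in the sources used here. The labels do not say that replicates came from separate cultures, so p-values measure the spread between these libraries, which may be technical.

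Zfp42 encodes a zinc finger protein that arose from a copy of Yy1. It is a classical marker of naive embryonic stem cells, transcribed in the inner cell mass and in cells kept in 2i and Lif and switched off early as cells leave the naive state, which is why reporters inserted at the gene are used to follow that exit. Its proximal promoter is known for an octamer element bound by Oct4 (Pou5f1), and Sox2 and Nanog also act on the gene. The TET enzymes oxidise 5-methylcytosine and the DNMT enzymes write and maintain it, so the knockout lines ask how the locus behaves with that turnover removed.

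The promoter is printed because the tile that holds it was the most accessible of the locus. The 250 bases before the start (RefSeq, GRCm38.p6, chr8:43307010-43307259, minus strand, 5′ to 3′) are given with motif matches in capitals.

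Zfp42 promoter: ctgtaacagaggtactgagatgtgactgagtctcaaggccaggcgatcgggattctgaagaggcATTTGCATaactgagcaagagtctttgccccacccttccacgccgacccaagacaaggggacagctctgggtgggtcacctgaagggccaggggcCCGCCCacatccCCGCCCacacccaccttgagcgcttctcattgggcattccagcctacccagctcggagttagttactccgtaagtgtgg

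The first capitals are the octamer ATTTGCAT, at -186 to -179 from the start, where -1 is the base before it. The other 2 are GC boxes, read here on the opposite strand of GGGCGG, at -91 to -86 and -79 to -74. Searched on both strands, the octamer was found in 1.60% of 32851 promoters of the same length and the GC box in 32.7%. The core motif of YY1, CCATNTT, had 0 matches in this window and was found in 12.4% of promoters. None of these motifs overlapped another. The window held 9 CpG dinucleotides (median of all promoters 6) and 58.4% G and C (median 52.4%).

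Accessibility is given as log2 RPKM, the binary logarithm of reads scaled to tile length and library size, after quantile normalisation across libraries. The libraries held 4172670 to 23686796 reads in tiles, and the locus held 313 to 2679 of them. Tests used the 39 locus tiles that reached the highest 10% of all tiles by mean or held a gene end. Another 14 tiles had reads below that level and 4 neighbouring ones, an 8-kb stretch from 43312001 to 43320000, were empty in all libraries of D0 and D2. The lowest tested tile had a mean of -0.50 and the highest untested one a mean of -0.53. At D1 the libraries differed from the others in mitochondrial reads (5.62% to 46.8% at D1 and 0% otherwise), for which the labels give no reason. Reads summed over tiles were 2.03 to 2.05 times the library total behind RPKM at D1. At D0 and D2 they were 1.15 times that total in the TET family and 1.02 times in the DNMT family. Day and processing therefore cannot be told apart in D1 against D0, nor family and processing between the 2 families. Before normalisation the median tested tile shifted by 0.43 to 0.62 from D0 to D1, and D1 changes are relative to that shift. Label checks used 6 naive and 6 formative marker promoters: over the 4 lines, the mean level of the naive set in single libraries was 1.10 to 1.73 at D0 and 0.82 to 1.20 at D2, and that of the formative set 0.43 to 1.13 at D0 and 1.01 to 1.59 at D2. The formative ranges overlap between lines but not between D0 and D2 within a line.

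The locus had 1 dominant peak at the gene start and a second accessible tile 14.0 kb upstream. Below these stood a group of 3 adjoining tiles 22.0 to 26.0 kb upstream (means of 0.40, 0.62 and 0.73 log2 RPKM) and a broad shoulder. The shoulder ran through the gene's 3′ end into the downstream flank, with a mean of 0.79 at 43288001. The gene start tile (43306001 to 43308000) had a mean log2 RPKM of 2.07 over the 35 libraries. Next came the neighbouring tile inside the gene (43304001 to 43306000), at 1.16. The intergenic tile with the highest mean, 1.09, was 43320001 to 43322000, which borders the 8-kb stretch that was empty at D0 and D2 and is called the upstream tile below. It was picked by its mean over all libraries. The locus had higher values than most of the genome: 68.4% of its tiles exceeded the level that marks the highest 10% of tiles. Chromosome 8 itself was rich in such tiles, with 16388 tested and 44617 untested. Over autosomes and X, 176281 of 1227228 tiles with a read at D0 or D2 were tested. The untested tiles of chromosome 8 also held 1.29 ± 0.05 times the reads of those on other autosomes in TET_WT at D0 (SD, n = 3). The share of 68.4% is not centred on that background, and copy number was not tested. In reads per tile over the background of chromosome 8, the whole locus stood at 2.35 ± 0.05 in TET_WT at D0 (SD, n = 3) and the gene start tile alone at 8.11 ± 3.18. That background holds only tiles outside the tested set. A value above 1 is thus partly fixed by how the tiles were sorted, and it is no test of openness.

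**Figure D1:**
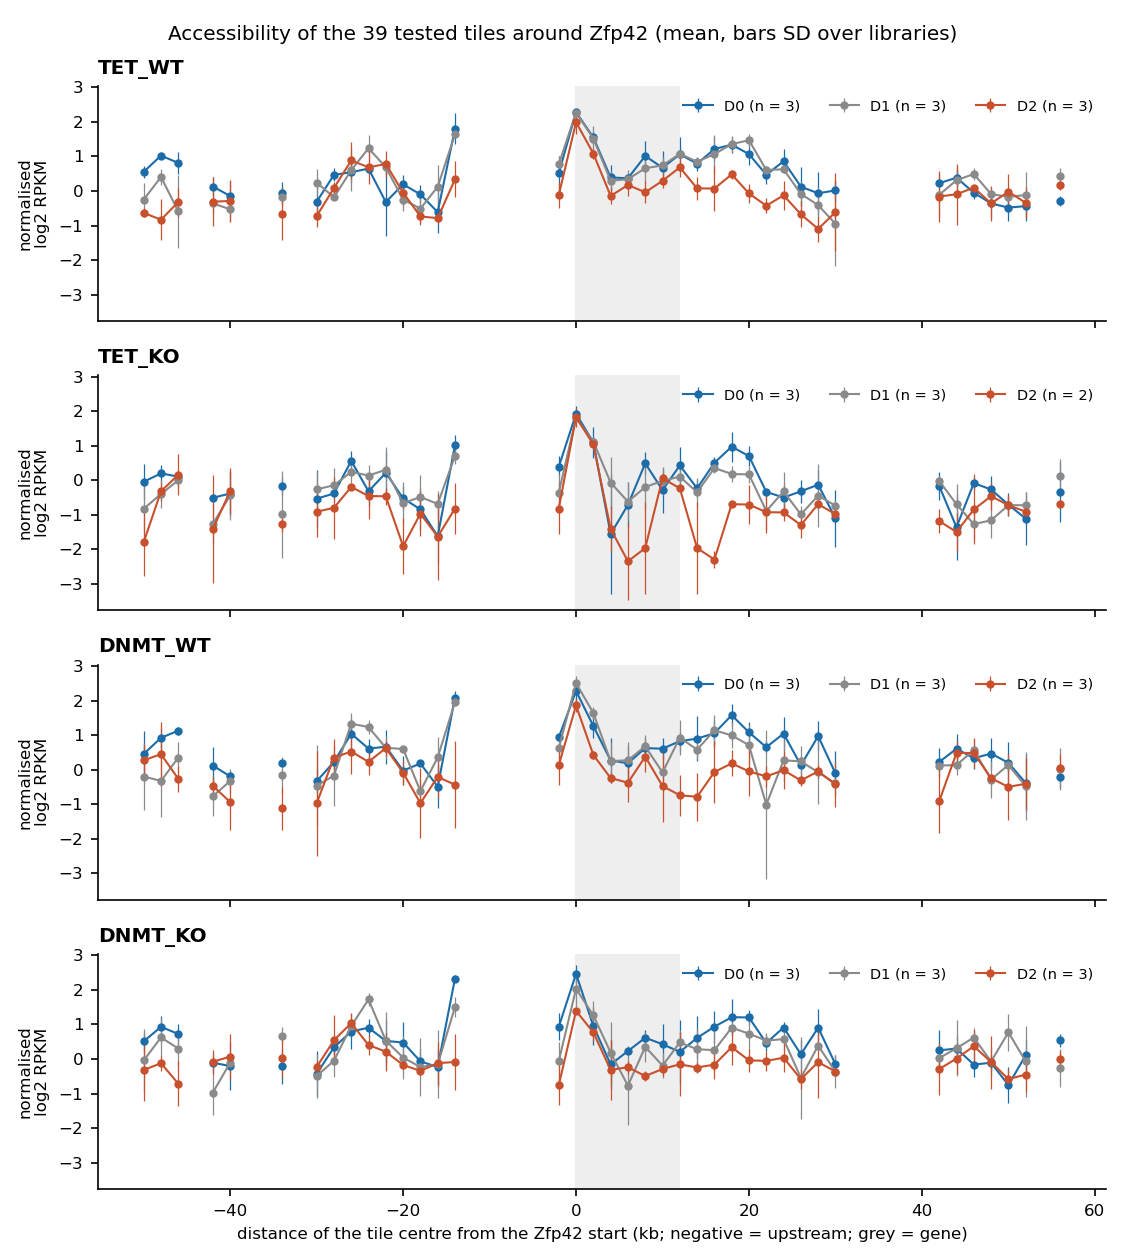
Normalised log2 RPKM (vertical axis) of the 39 tested tiles by distance of the tile centre from the Zfp42 start in kb (horizontal axis, negative is upstream, grey is the gene), 1 panel per line. Points are group means, bars the SD over libraries (n = 3, TET_KO at D2 n = 2), and colours the day; at 14.0 kb upstream the D2 mean is the lowest of the 3 days in each line (for example 0.34 against 1.80 at D0 in TET_WT).

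Between naive cells and day 2 cells the upstream tile fell in all 4 lines, and no other locus tile was called in more than 2 of them. Its log2 change was -1.46 ± 0.36 (SE) in TET_WT, -1.83 ± 0.40 in TET_KO, -2.52 ± 0.36 in DNMT_WT and -2.41 ± 0.36 in DNMT_KO (limma, 3 against 3 libraries, 3 against 2 in TET_KO). The adjusted p-values of the limma fit were 0.0247, 0.00612, 2.21e-06 and 4.73e-06 in the same order. Fewer cells with an open tile and less opening per cell cannot be told apart in such bulk samples.

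In TET_WT the normalised log2 RPKM of the upstream tile was 2.19, 1.31 and 1.91 at D0 and -0.25, 0.71 and 0.56 at D2, from 130, 37 and 85 reads and 15, 24 and 29 reads. TET_KO gave 0.70, 1.02 and 1.32 at D0 (24, 25 and 26 reads) and -0.29 and -1.34 at D2 (8 and 9 reads). Every D2 library lay below every D0 library of its line in both. In DNMT_WT the values were 1.94, 2.31 and 2.01 at D0 (41, 39 and 52 reads) and 0.41, -1.89 and 0.17 at D2 (12, 2 and 9 reads). DNMT_KO had 2.35, 2.21 and 2.43 at D0 (42, 48 and 59 reads) and 0.70, -0.05 and -0.92 at D2 (18, 9 and 5 reads). The groups again did not overlap, and D2 replicate 2 of DNMT_WT, with 2 reads, was the lowest of the 35 libraries. In the DNMT family the call held whichever library was left out, with changes of -2.94 to -1.80 in DNMT_WT and -2.82 to -2.01 in DNMT_KO. TET_WT lost it (adjusted p in brackets) without D0 replicate 1 (-1.28, 0.255), D0 replicate 3 (-1.41, 0.113), D2 replicate 1 (-1.18, 0.281) or D2 replicate 3 (-1.57, 0.0618). TET_KO lost it without D0 replicate 3 (-1.67, 0.0503) or D2 replicate 3 (-1.31, 0.357), and on reads thinned to the smallest library (-1.93, 0.0626). In TET_WT it was also lost on values as deposited (-1.28, 0.287), with no filter on tiles (-1.43, 0.130), with tiles empty at D0 and D2 kept (-1.46, 0.0790) and on thinned reads (-1.45, 0.232).

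**Figure D2:**
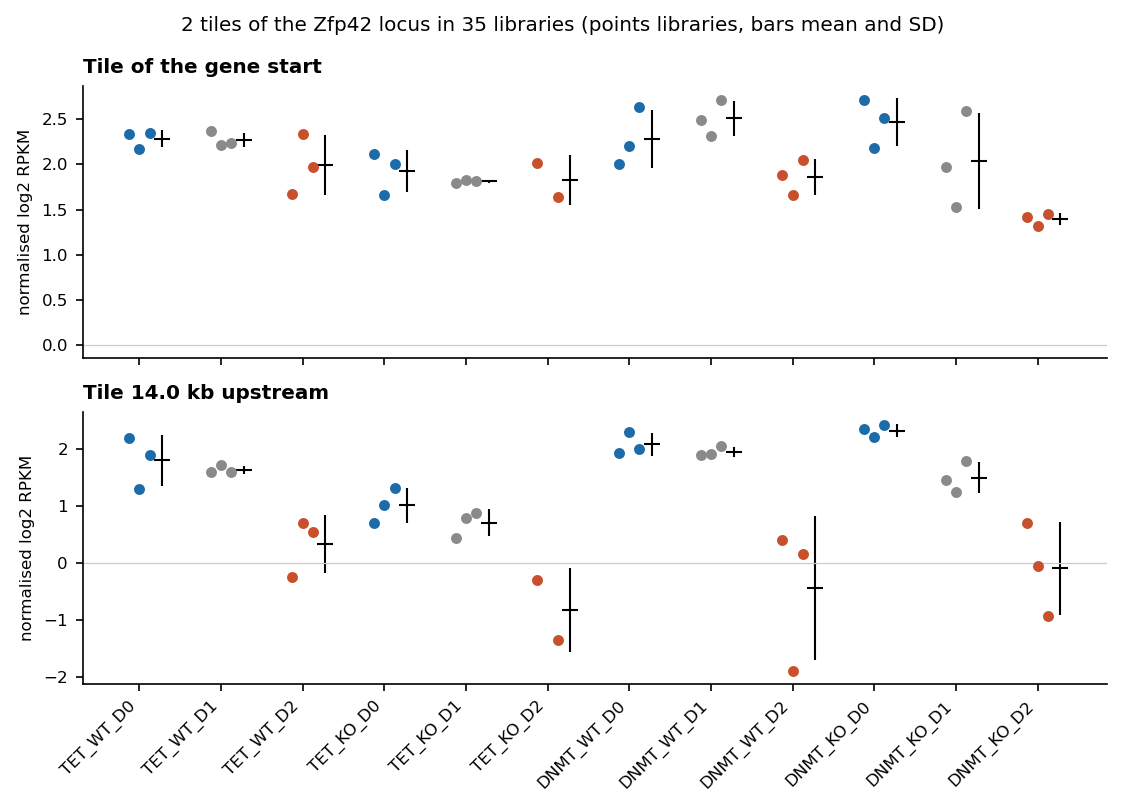
Normalised log2 RPKM (vertical axes) of the gene start tile and of the tile 14.0 kb upstream in each of the 35 libraries (points), by group of line and day (horizontal axis), with the mean and SD beside them. The 4 D2 groups take the lowest 4 means at the upstream tile (0.34 to -0.82), while at the gene start tile only DNMT_KO at D2 (1.40) stands clear of the next group.

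The gene start tile itself fell between D0 and D2 in DNMT_KO and was not called in the other 3 lines. Its log2 change was -0.29 (95% interval -0.78 to 0.20) in TET_WT, -0.10 (-0.65 to 0.45) in TET_KO and -0.42 (-0.91 to 0.07) in DNMT_WT, none of them called (limma adjusted p = 1.00, 0.968 and 0.515). In DNMT_KO it was -1.07 ± 0.25 (SE, limma adjusted p = 0.00566). The DNMT_KO values were 2.71, 2.18 and 2.51 at D0 (52, 47 and 63 reads) and 1.42, 1.32 and 1.45 at D2 (28, 20 and 22 reads), with no overlap. DNMT_WT had 2.00, 2.20 and 2.63 at D0 (43, 36 and 80 reads) and 1.88, 1.66 and 2.05 at D2 (33, 22 and 29 reads), which overlap. The interaction of line and day, that is the change in DNMT_KO minus the change in DNMT_WT, was -0.65 (-1.34 to 0.04, limma adjusted p = 0.830), so the lines were not shown to differ. TET_WT had 2.33, 2.17 and 2.35 at D0 (140, 59 and 120 reads) and 1.67, 2.33 and 1.97 at D2 (45, 92 and 77 reads). In TET_KO the tile stood at 2.11, 1.67 and 2.00 at D0 (57, 39 and 44 reads) and 2.02 and 1.63 at D2 (46 and 58 reads). D0 and D2 overlapped in both TET lines. The fall in DNMT_KO kept its call whichever library was left out (-1.21 to -0.96). It was not called on thinned reads (-0.86, limma adjusted p = 0.342) or with only those groups in the fit (-1.04, 0.0582).

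The 2 tiles were also set against each other within each library, which needs no scaling between libraries. Reads in the upstream tile per read in the gene start tile were 0.755 ± 0.156 at D0, 0.659 ± 0.035 at D1 and 0.324 ± 0.058 at D2 in TET_WT (SD, n = 3 each). TET_KO gave 0.551 ± 0.115, 0.442 ± 0.037 and 0.165 ± 0.013 (n = 3, 3 and 2). In DNMT_WT the ratio was 0.896 ± 0.222, 0.686 ± 0.065 and 0.255 ± 0.145, and in DNMT_KO 0.922 ± 0.108, 0.674 ± 0.180 and 0.440 ± 0.208 (n = 3 each). Within each line all D2 ratios lay below all D0 ratios. On normalised log2 values the difference of the 2 tiles was 1.59 lower at D2 than at D0 as the mean over lines. An exact 2-sided permutation test of day within line gave p = 1.25e-05, the smallest that its 80000 regroupings of 23 libraries allow. That test was chosen after the values had been seen.

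**Figure D3:**
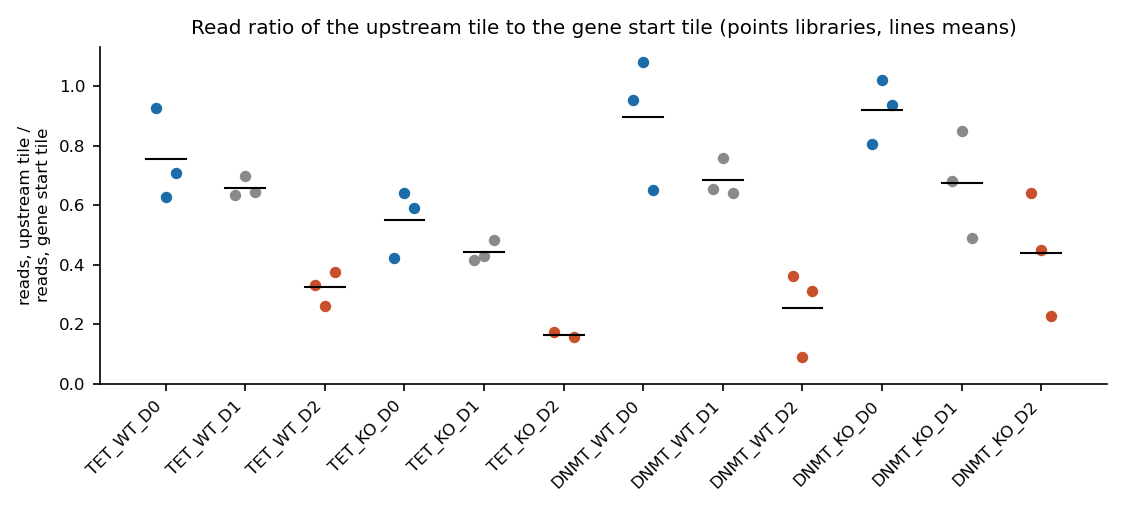
Reads in the upstream tile divided by reads in the gene start tile (vertical axis, starting at 0) for each library (points), by group of line and day (horizontal axis); lines are group means. Mean ratios at D2 are 0.165 to 0.440, against 0.551 to 0.922 at D0.

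Across the whole locus the D2 changes were mostly downward, and every called tile had fallen. Of 39 tested tiles, 2 fell in TET_WT (0.432% of all tested tiles fell there and 0.192% rose), 4 in TET_KO (0.738% and 0.137%), 4 in DNMT_WT (1.36% and 0.442%) and 5 in DNMT_KO (1.53% and 0.332%), by limma with adjusted p under 0.05. No locus tile rose by that test. At an unadjusted p under 0.05, 10, 12, 15 and 12 of the 39 were lower and 1, 0, 0 and 0 higher, in the same order. Of all tested tiles, 3.8%, 5.38%, 6.65% and 6.68% were lower and 2.91%, 3.74%, 5.6% and 5.44% higher at that unadjusted threshold. The median change of the 39 tiles was -0.47, -0.56, -0.64 and -0.52, beside 0.01, 0.03, 0.03 and 0.04 for all tested tiles. D2 libraries lay wholly below D0 libraries in 16 of 39 locus tiles in TET_WT (8.43% of all tested tiles), 17 in TET_KO (13.1%), 15 in DNMT_WT (7.96%) and 14 in DNMT_KO (8.67%). They lay wholly above in 2, 0, 0 and 0 locus tiles (7.83%, 13.7%, 7.68% and 7.67% of all tested tiles). Over the same days the promoters of 6 fibroblast marker genes had a median change of 0.82 in TET_KO (mean level -0.99 to -0.37 at D0 and 0.17 to 0.25 at D2, 0 of 6 called), and of 0.26, -0.11 and -0.01 in TET_WT, DNMT_WT and DNMT_KO. Their part in the TET_KO falls was not tested. The numbers of called tiles were sensitive to single libraries. TET_WT had 0 called without D0 replicate 1, D2 replicate 1 or D2 replicate 3 and 1 without D0 replicate 2 or 3. TET_KO had 2 without D0 replicate 3 and 1 without D2 replicate 3, and DNMT_WT had 1 without D0 replicate 2. DNMT_KO had 3 without D0 replicate 1, D0 replicate 2 or D2 replicate 2, and 2 without D0 replicate 3 or D2 replicate 3.

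In reads per tile over the background of chromosome 8, the whole locus (53 tiles with reads) went from 2.35 ± 0.05 at D0 to 1.85 ± 0.04 at D2 in TET_WT, from 2.20 ± 0.10 to 1.47 ± 0.10 in TET_KO, from 2.55 ± 0.20 to 1.62 ± 0.12 in DNMT_WT and from 2.78 ± 0.59 to 1.63 ± 0.16 in DNMT_KO (SD). The D2 libraries lay below the D0 libraries in each line. The downstream flank went from 2.04 ± 0.09 to 1.55 ± 0.26 in TET_WT and from 2.34 ± 0.26 to 1.48 ± 0.07 in DNMT_WT. For the gene body without the start tile the values were 3.19 ± 0.22 and 2.51 ± 0.21 in TET_WT, and 2.87 ± 0.11 and 1.67 ± 0.39 in DNMT_WT. The whole-locus score shares its tiles with the changes above and is given as a description.

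**Figure D4:**
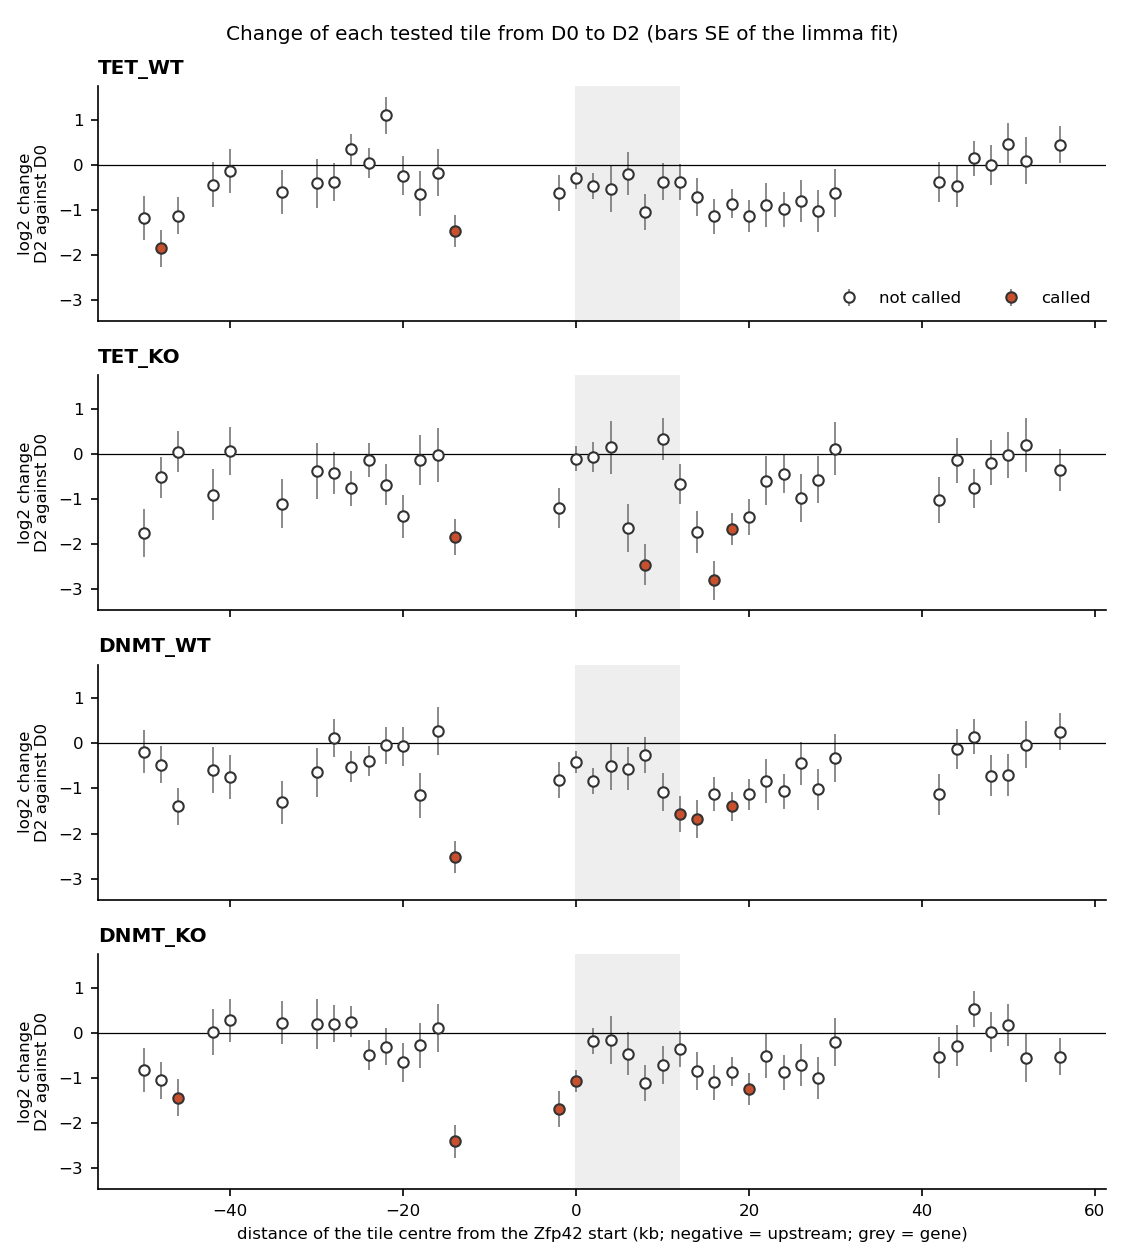
Log2 change from D0 to D2 (vertical axis) of each of the 39 tested tiles by distance from the Zfp42 start in kb (horizontal axis, negative is upstream, grey is the gene), 1 panel per line; bars are the SE of the limma fit. Filled points passed the test (2 in TET_WT, 4 in TET_KO, 4 in DNMT_WT and 5 in DNMT_KO), and the tile 14.0 kb upstream is filled in each panel.

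Downstream of Zfp42 and in the gene, 6 tiles other than the start tile were called, in TET_KO, DNMT_WT or DNMT_KO, as far as 20.0 kb from the start. The strongest was 43290001 to 43292000, 16.0 kb from the start, in TET_KO, with a log2 change of -2.80 ± 0.43 (SE, limma adjusted p = 3.36e-05). Its normalised values there were 0.56, 0.31 and 0.65 at D0 (22, 15 and 15 reads) and -2.47 and -2.11 at D2 (2 and 6 reads), far apart. The call held without any 1 library (-3.00 to -2.63). The next tile, 43288001 to 43290000, fell in TET_KO by 1.66 ± 0.36 (adjusted p = 0.00558) and in DNMT_WT by 1.39 ± 0.32 (0.00681). Its values were 1.11, 0.49 and 1.32 at D0 and -0.75 and -0.63 at D2 in TET_KO. In DNMT_WT they were 1.25, 1.87 and 1.61 at D0 and -0.18, 0.56 and 0.17 at D2, and neither pair of groups overlapped. TET_KO lost that call without D0 replicate 3 (-1.48), D2 replicate 1 (-1.60) or D2 replicate 3 (-1.73), and DNMT_WT without D0 replicate 2 (-1.25) or D2 replicate 1 (-1.21). Inside the gene, 43298001 to 43300000 fell in TET_KO by 2.45 ± 0.44 (adjusted p = 0.000508). It went from 0.70, 0.64 and 0.13 (24, 19 and 10 reads) to -1.02 and -2.89 (5 and 4 reads) without overlap, and lost its call without D2 replicate 3 (-1.52).

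DNMT_WT had a further pair of called tiles side by side around the 3′ end of the gene. The tile 43294001 to 43296000, which holds that end, changed by -1.57 ± 0.40 (limma adjusted p = 0.0174), from 1.14, 0.72 and 0.62 at D0 (22, 13 and 20 reads) to -0.18, -1.35 and -0.68 at D2 (8, 3 and 5 reads). Its neighbour 43292001 to 43294000 changed by -1.68 ± 0.42 (0.0153), from 0.14, 1.24 and 1.32 (11, 18 and 32 reads) to -1.59, -0.35 and -0.41 (3, 6 and 6 reads). In both the groups stayed apart. The first lost its call without D0 replicate 1 (-1.41), D0 replicate 2 (-1.62) or D2 replicate 2 (-1.26), and the second without D0 replicate 2 (-1.51), D0 replicate 3 (-1.47) or D2 replicate 1 (-1.28). In DNMT_KO the tile 43286001 to 43288000, 20.0 kb from the start, changed by -1.24 ± 0.35 (0.0429), from 1.38, 1.28 and 0.95 (24, 23 and 19 reads) to 0.02, 0.27 and -0.41 (12, 11 and 7 reads). The groups were apart, but the call was lost whichever of the 6 libraries was left out (-1.40 to -1.06).

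Upstream of the start 3 other tiles were called in 1 line each. Next to the start tile, 43308001 to 43310000 fell in DNMT_KO by 1.69 ± 0.40 (limma adjusted p = 0.00780), from 0.95, 0.53 and 1.32 at D0 (19, 13 and 25 reads) to -0.11, -0.92 and -1.24 at D2 (11, 5 and 4 reads). It lost the call without D0 replicate 3 (-1.50) or D2 replicate 3 (-1.46). In TET_WT the tile 43354001 to 43356000, 48.0 kb upstream, changed by -1.86 ± 0.41 (0.00890), from 1.14, 0.99 and 0.95 (74, 31 and 40 reads) to -1.33, -0.17 and -0.98 (8, 12 and 11 reads). Without D0 replicate 1 (-1.81), D0 replicate 2 (-1.88), D2 replicate 1 (-1.61) or D2 replicate 3 (-1.78) it was not called. The adjoining tile 43352001 to 43354000 changed by -1.44 ± 0.41 (0.0462) in DNMT_KO, from 0.95, 0.41 and 0.82 (19, 12 and 17 reads) to 0.02, -0.92 and -1.24 (12, 5 and 4 reads). That call held without D2 replicate 1 and was lost without D0 replicate 1 (-1.32), D0 replicate 2 (-1.59), D0 replicate 3 (-1.39), D2 replicate 2 (-1.33) or D2 replicate 3 (-1.18). D0 and D2 did not overlap in any of the 3. The highest change upward in any line was 1.10 ± 0.41 in TET_WT at 43328001, 22.0 kb upstream, which was not called (adjusted p = 0.361).

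After 1 day no locus tile was called in any line. Of 39 tiles 0 passed in TET_WT, TET_KO, DNMT_WT and DNMT_KO, where 0.0959%, 0.22%, 0.48% and 0.625% of all tested tiles fell and 0.072%, 0.118%, 0.3% and 0.272% rose (limma, adjusted p under 0.05). At an unadjusted p under 0.05, 1, 2, 4 and 3 of the 39 tiles were lower and 1, 1, 0 and 2 higher, beside 3.21%, 4.63%, 5.31% and 6.51% lower and 2.79%, 4.23%, 5.12% and 5.34% higher among all tested tiles. The upstream tile was at 1.60, 1.72 and 1.60 in TET_WT at D1 (45, 44 and 38 reads), within its D0 range. In TET_KO it was at 0.44, 0.80 and 0.89 (17, 21 and 15 reads) and in DNMT_WT at 1.89, 1.91 and 2.06 (34, 35 and 27 reads), both overlapping D0. DNMT_KO alone had D1 values, 1.46, 1.25 and 1.80 (28, 17 and 23 reads), wholly below those at D0. Its change was -0.82 (95% interval -1.54 to -0.11, limma adjusted p = 0.319), and the changes in the other lines were -0.16 (-0.87 to 0.55), -0.31 (-1.02 to 0.41) and -0.13 (-0.84 to 0.58) in TET_WT, TET_KO and DNMT_WT. For the gene start tile, D1 values were 2.36, 2.21 and 2.24 in TET_WT (71, 63 and 59 reads), 1.80, 1.83 and 1.81 in TET_KO (41, 49 and 31 reads), 2.49, 2.32 and 2.71 in DNMT_WT (52, 46 and 42 reads) and 1.98, 1.53 and 2.59 in DNMT_KO (41, 20 and 47 reads). All 4 overlapped their D0 values. On values as deposited, 1, 1 and 3 locus tiles were called at D1 in TET_WT, DNMT_WT and DNMT_KO.

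Ordered by level, the gene start tile ran from 2.51 ± 0.20 in DNMT_WT at D1 to 1.40 ± 0.07 in DNMT_KO at D2 (SD). Only the last step, from TET_KO at D1 (1.81 ± 0.02) to DNMT_KO at D2, exceeded the larger SD and had no overlapping libraries. The upstream tile ran from 2.33 ± 0.11 in DNMT_KO at D0 to -0.82 ± 0.74 in TET_KO at D2. Its 8 highest groups were those at D0 and D1 and its 4 lowest those at D2, but no neighbours in the order were free of overlap. Both orders use values not centred by chromosome. The lower chromosome 8 background of TET_KO, given below, therefore enters the places of its groups. Places of the D1 groups carry the limit on day and processing given above.

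TET_KO had lower values than TET_WT over most of the locus at each day, and so had chromosome 8 as a whole. The median difference of the 39 tiles was -0.63 at D0, -0.75 at D1 and -0.85 at D2, with 36, 33 and 36 tiles below 0. The median over all tested tiles of chromosome 8 was -0.55, -0.52 and -0.50 in the same comparisons, and over all tested tiles 0.00, 0.01 and 0.01. By limma 0 of 39 locus tiles were called at D0 (0.0777% of all tested tiles were lower and 0.0414% higher), 1 at D1 (0.0431% and 0.0267%) and 2 at D2 (0.0675% and 0.0125%), all lower in TET_KO. At an unadjusted p under 0.05, 11, 14 and 16 of the 39 were lower and 0 higher at each day. Of all tested tiles 4.91%, 4.7% and 4.31% were lower and 3.94%, 3.73% and 2.89% higher at that threshold. Of the 16388 tested tiles of chromosome 8, 25.1%, 22.7% and 19.2% were lower. TET_KO libraries lay wholly below those of TET_WT in 14 locus tiles at D0 (8.56% of all tested tiles), 19 at D1 (7.68%) and 19 at D2 (13.8%). They lay wholly above in 0, 0 and 1 (8.12%, 7.17% and 13.7% of all tested tiles). These counts are not centred by chromosome, and the share among tiles of chromosome 8 was not computed.

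The background of chromosome 8 was measured from reads in its 44617 untested tiles. They made up 5.80 ± 0.22% of autosomal background reads in TET_WT at D0 and 4.34 ± 0.22% in TET_KO (SD, n = 3 each). Relative to the parent the share in TET_KO was 0.749 ± 0.038 at D0, 0.704 ± 0.031 at D1 and 0.737 ± 0.001 at D2 (n = 3, 3 and 2), at each day the lowest of the 19 autosomes. Chromosome 14 was nearly as low in TET_KO (0.778 ± 0.013, 0.777 ± 0.023 and 0.791 ± 0.004), and chromosome 6 came next (0.876 ± 0.019, 0.861 ± 0.026 and 0.888 ± 0.026). The number of copies of these chromosomes was not tested, and no karyotype was used here, so copy number and accessibility cannot be told apart in the uncentred differences between TET_KO and TET_WT. Per tile, TET_KO chromosome 8 held 0.955 ± 0.051, 0.919 ± 0.042 and 0.923 ± 0.002 times the background reads of the other autosomes, against 1.29 ± 0.05, 1.33 ± 0.08 and 1.27 ± 0.03 in TET_WT. DNMT_WT stood at 1.34, 1.27 and 1.32 and DNMT_KO at 1.33, 1.40 and 1.30. As a mean over days the share of autosomal background reads differed by -1.57 percentage points between TET_KO and TET_WT and by 0.138 between DNMT_KO and DNMT_WT. These are descriptions, since chromosome 8 was chosen with earlier results known.

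With each chromosome centred on its own background, the median difference of the 39 tiles between TET_KO and TET_WT was -0.21 at D0, -0.25 at D1 and -0.41 at D2, with 24, 24 and 28 tiles below 0. None was called at any day by limma, where 0.0153%, 0.0113% and 0.0255% of all tested tiles were lower and 0.0187%, 0.0176% and 0.00964% higher. At an unadjusted p under 0.05, 3, 4 and 6 of the 39 tiles were lower and 1, 1 and 2 higher. At that threshold 3.05%, 2.93% and 3.03% of all tested tiles were lower and 3.49%, 3.27% and 2.6% higher, and of those on chromosome 8, 6.62%, 4.12% and 5.37% were lower. The gene start tile was -0.36, -0.46 and -0.16 before centring and 0.06, 0.05 and 0.28 after it. The upstream tile was -0.79, -0.93 and -1.16 before and -0.37, -0.43 and -0.72 after. The tiles called before centring were those at 43260001 (46.0 kb from the start, D1), 43290001 and 43300001 (both D2). The first was -1.76 ± 0.39 (limma adjusted p = 0.0447), with 0.28, 0.62 and 0.58 in TET_WT (19, 17 and 18 reads) and -1.53, -1.48 and -0.79 in TET_KO (5, 4 and 4 reads), and -1.25 (0.437) once centred. Uncentred, the second was -2.36 ± 0.43 (0.00356), with 0.82, -0.41 and -0.18 in TET_WT (28, 10 and 18 reads) and -2.47 and -2.11 in TET_KO (2 and 6 reads). Centring brought it to -1.92 (0.0653). For the third, inside the gene, the difference was -2.52 ± 0.53 (0.0203), with 0.13, 0.50 and -0.11 in TET_WT (19, 20 and 19 reads) and -3.13 and -1.56 in TET_KO (1 and 8 reads), and -2.08 (0.163) once centred. In all 3 the TET_KO libraries lay below those of TET_WT.

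Single libraries also decided these calls. The D1 tile kept its call when TET_KO replicate 3 was left out and lost it without any 1 of the other 5 libraries, with differences of -1.99 to -1.63 over the 6 leave-outs. The tile 43290001 lost its call without TET_WT replicate 1 (-2.00) or TET_KO replicate 1 (-2.19). The tile 43300001 lost it without TET_WT replicate 1 (-2.55), 2 (-2.35) or 3 (-2.67), or TET_KO replicate 1 (-1.74). At D2 the count was 0 without TET_WT replicate 1 and 1 without TET_WT replicate 2 or 3, and at D0 it was 1 without TET_KO replicate 1. Promoter levels of 6 fibroblast genes, averaged, were -0.99 to -0.37 in the TET_KO libraries at D0 and -0.77 to -0.12 in TET_WT, which overlap. At D1 they were -0.13 to 0.17 and -0.95 to -0.33, and at D2 0.17 to 0.25 and -0.38 to -0.11. By limma 0 of the 6 were called at any day, where 0.0414%, 0.0267% and 0.0125% of all tested tiles were higher. At D0, D1 and D2 the levels were 0.00 to 0.27, -0.66 to -0.05 and -0.18 to 0.28 in DNMT_WT. In DNMT_KO they were -0.31 to 0.08, -0.06 to 0.18 and -0.23 to -0.08. The TET_KO range lay above that of TET_WT at D1 and at D2. Levels set between the families carry the limit on family and processing given above. The part of the fibroblast genes in the difference was not tested.

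**Figure D5:**
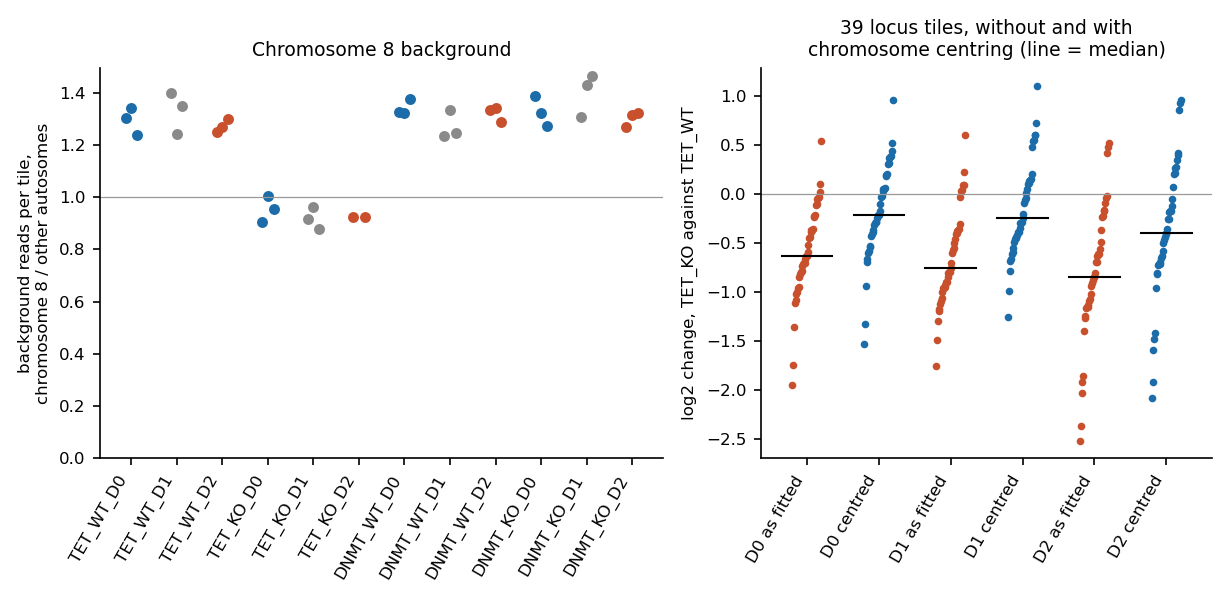
Left, background reads per tile on chromosome 8 divided by those on the other autosomes (vertical axis) in each library, by group; TET_KO libraries lie at 0.878 to 1.01 and all others above 1.2. Right, log2 difference of TET_KO against TET_WT for the 39 locus tiles at each day (points, black line the median), as fitted and with chromosomes centred on their background; medians move from -0.63, -0.75 and -0.85 to -0.21, -0.25 and -0.41.

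Between DNMT_KO and DNMT_WT no locus tile passed the test at any day. The median difference of the 39 tiles was -0.09 at D0, -0.06 at D1 and 0.07 at D2. The background was low too (0%, 0.00908% and 0.0216% of all tested tiles were lower and 0%, 0.00397% and 0.0102% higher; limma, adjusted p under 0.05), and at an unadjusted p under 0.05, 1, 2 and 2 of the 39 tiles were lower and 0, 2 and 2 higher. Among all tested tiles 2.71%, 4.84% and 4.17% were lower and 2.77%, 4.08% and 4.07% higher unadjusted. The upstream tile differed by 0.24 (95% interval -0.47 to 0.95), -0.45 (-1.16 to 0.26) and 0.35 (-0.36 to 1.06), and the gene start tile by 0.19 (-0.30 to 0.67), -0.47 (-0.96 to 0.01) and -0.47 (-0.95 to 0.02).

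Whether the knockouts altered the D0 to D2 change was tested as an interaction. In the TET family 0 of 39 tiles passed (5 lower and 1 higher at an unadjusted p under 0.05), where 0.000567% of all tested tiles were lower and 0% higher (1.85% and 1.4% unadjusted). In the DNMT family 0 passed (0 lower and 2 higher unadjusted), with 0% of all tiles in either direction (3.06% lower and 3.09% higher unadjusted). At the upstream tile the interaction was -0.37 (95% interval -1.44 to 0.70) for TET and 0.11 (-0.90 to 1.12) for DNMT. At the gene start tile it was 0.19 (-0.54 to 0.92) for TET. The intervals are wide, so these data do not show that the lines act alike.

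Other genes were read at their promoter tile only. Of 20 naive pluripotency genes, 2 fell from D0 to D2 in TET_WT, 0 in TET_KO, 2 in DNMT_WT and 1 in DNMT_KO, and none rose (limma, adjusted p under 0.05). Of all tested tiles 0.432%, 0.738%, 1.36% and 1.53% fell in the same contrasts. They were Tfcp2l1, which encodes a factor of the naive transcription network, and Tdh, a threonine dehydrogenase of mouse stem cells. Tfcp2l1 changed by -1.20 ± 0.28 (SE, limma adjusted p = 0.0176) in TET_WT, -1.16 ± 0.28 (0.0122) in DNMT_WT and -1.41 ± 0.28 (0.00109) in DNMT_KO. Tdh, read at the more accessible of its ends because its strand is not in the table used, changed by -1.78 ± 0.38 (0.00606) in TET_WT and -1.81 ± 0.38 (0.00224) in DNMT_WT. Median changes of the 20 promoters from D0 to D2 were -0.17, -0.34, -0.26 and -0.55 in TET_WT, TET_KO, DNMT_WT and DNMT_KO. At D1, 1, 2, 3 and 0 of the 20 fell, beside 0.0959%, 0.22%, 0.48% and 0.625% of all tested tiles. They were Tfcp2l1 in TET_WT, TET_KO and DNMT_WT, Nanog in TET_KO and DNMT_WT, and Klf2, a Kruppel-like factor of the naive state, in DNMT_WT (-0.93 ± 0.25, adjusted p = 0.0475).

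Among the factors that act on the Zfp42 promoter, those of Pou5f1, Sox2 and Nanog were not called at D2 in any line. Nanog, the homeobox factor of the naive state, fell at D1 in TET_KO (-1.42 ± 0.33, limma adjusted p = 0.0240) and in DNMT_WT (-1.26 ± 0.33, 0.0374). In these contrasts 0.22% and 0.48% of all tested tiles fell, and day and processing cannot be told apart. Nanog was also lower in TET_KO than in TET_WT at D1 (-1.79 ± 0.33, 0.00357), as were 0.0431% of all tested tiles. That difference is not centred, and the background of its chromosome 6 stood at 0.861 ± 0.026 of the parent there (SD, n = 3). Of the YY1 family, Yy1, the ubiquitous parent gene, changed from D0 to D2 by 0.36, -0.17, 0.31 and 0.16 and Yy2, a retroposed copy on X, by 1.01, 0.85, -0.03 and 0.45 in TET_WT, TET_KO, DNMT_WT and DNMT_KO. Neither was called in any comparison. Of 8 genes within 1 Mb of Zfp42 (Triml1, Triml2, Adam26b, Adam26a, Adam34l, Adam34, Gm5347 and Gm45488), 0 were called in any comparison. At most 1.53% of all tested tiles were called in 1 direction in any contrast. With so few genes, the absence of calls here, in the YY1 family and at D2 above says little about them. The nearest of the 8, Triml2, a tripartite motif gene (43180463 to 43193884), changed by -0.61 ± 0.29, -0.30 ± 0.32, -0.48 ± 0.29 and -0.64 ± 0.29 from D0 to D2.

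The promoters whose pattern over the 12 group means was most like that of the Zfp42 start tile were sought among 20841 others. Smim14 had the highest Pearson correlation (0.864), then Sap18b on chromosome 8 (0.858), Creb3 and Tln1 (both 0.851, 1 shared tile) and Rergl (0.851). These are descriptions over 12 means that share libraries and depth. The means are not centred by chromosome, so the lower chromosome 8 background of TET_KO enters those of Zfp42 and Sap18b.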

How the data were processed

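Libraries came from 10000 cells and 13 cycles of PCR, per the labels' protocols. The submitters' processing notes name Trim Galore 0.6.5, cutadapt 2.3, Bowtie2 2.4.1 and GRCm38. Shifting of read ends, handling of duplicates and masked regions are not given in the sources used here. Per 2-kb tile, the authors deposited log2 RPKM. Values were whole multiples of 1 read (all but a few tiles within 0.01 read) with empty tiles at 0.9 read, so reads were recovered.

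Tested tiles lay on autosomes and X, had a read at D0 or D2, and were in the highest 10% by mean (minimum -0.51) or held a gene end (176281). After quantile normalisation, limma 3.58.1 in R 4.3.3 was fitted with a trend, 12 group means over 35 libraries (23 residual degrees of freedom), with Benjamini-Hochberg adjustment over tiles within each of 16 contrasts. The script was tested on simulated data. Intervals are 95% and cover library spread. Counts of 1 to 3 reads carry large counting error.

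The members and lists were chosen with earlier results of these data known. Printed in full were the gene start tile, the upstream tile and each called tile. Called list genes, at most 3 per contrast by size, and the 5 most correlated promoters were named. Promoters used the RefSeq start (GRCm38.p6) where strand was given, for 12 of 20 naive genes, otherwise the more accessible end. Replicate numbers did not pair libraries. Alternatives covered scaling, chromosome centring, filters, pseudocount (2 reads added), voom with TMM computed from its formula, thinning, groups fitted, window, replicate block and leave-one-out.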

Additional observations from a re-analysis of the deposited data

Results flagged for a closer look

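The 4 tiles of the locus that were empty at D0 and D2 held 9 reads in the 12 D1 libraries together, in data outside the tested set. They lay in 2 of the 4 tiles, 6 reads in the tile starting at 43314001 and 3 in that starting at 43318001, and came from TET_WT, TET_KO and DNMT_WT (3 reads each) and none from DNMT_KO. Day and processing cannot be told apart here.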

How the results depend on the processing

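No called tile changed sign under any alternative. Of the 45 tile results, 15 that were not called changed sign under at least 1 alternative, and none of them was called there. Among them, the gene start tile in TET_KO against TET_WT went from -0.36, -0.46 and -0.16 to at most 0.11, 0.05 and 0.36 at D0, D1 and D2, and the upstream tile in TET_WT at D1 from -0.16 to at most 0.70. Numbers of called locus tiles (of 39) rose to at most 3 in TET_WT, 5 in TET_KO and 5 in DNMT_WT at D2, leave-one-out apart. Those that moved by over 1.5 times were as follows. As deposited: TET_WT 1 at D1 and 0 at D2, DNMT_WT 1 at D1, DNMT_KO 3 at D1 and 3 at D2, TET_KO against TET_WT 2 at D1 and 0 at D2. With tiles empty at D0 and D2 kept, TET_WT at D2 had 1. With no filter, TET_WT at D2 had 0, DNMT_KO at D2 3 and TET_KO against TET_WT at D1 0. On thinned reads, D2 gave 0, 2, 1 and 1 in TET_WT, TET_KO, DNMT_WT and DNMT_KO, and TET_KO against TET_WT 0 at D1 and 1 at D2. With a 25 kb window TET_WT at D2 had 1 and TET_KO against TET_WT at D1 0. With voom, DNMT_WT at D2 had 2, DNMT_KO at D2 3, and TET_KO against TET_WT 0 at D1 and D2. With only the groups compared, DNMT_WT at D2 had 2, DNMT_KO at D2 1 and TET_KO against TET_WT at D2 0. With the highest 20% of tiles, DNMT_KO at D2 had 3 and TET_KO against TET_WT 0 at D1 and 4 at D2. Either chromosome centring gave 0 for TET_KO against TET_WT at D1 and D2, and 2 reads added gave 0 and 1. The cause was not tested. The upstream tile in TET_WT was not called as deposited (-1.28), with empty tiles kept (-1.46), with no filter (-1.43) or thinned (-1.45), nor in TET_KO thinned (-1.93). Taken as the median of tested tiles, the chromosome 8 ratio was 0.708 in TET_KO at D0 and 0.951 in DNMT_KO at D2.

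Replicate numbers did not pair libraries (no contrast had all same-number correlations over 0.1). The replicate block gave 2, 4, 4 and 5 called tiles at D2 in TET_WT, TET_KO, DNMT_WT and DNMT_KO and changed no call of the upstream tile (-1.46, -1.90, -2.52 and -2.41). Leaving out each library gave 0 to 2, 1 to 4, 1 to 4 and 2 to 4 called tiles at D2 in that order, 0 to 2 in DNMT_WT at D1 (2 without D1 replicate 2 and 1 without D1 replicate 3), and 0 to 1, 0 to 1 and 0 to 3 for TET_KO against TET_WT at D0, D1 and D2. The upstream tile at D2 ranged from -1.72 to -1.18, -2.35 to -1.31, -2.94 to -1.80 and -2.82 to -2.01. Depth limits tiles other than the start: at D2 the called tiles held 1 to 31 reads per library.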
